A study of Homo sapiens with 24 samples.

Results

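The clustered protocadherin genes were described in 3 human liver cancer cell lines after inhibition of DNA methyltransferases, of EZH2, or of both. Members were the protein-coding genes on chromosome 5 whose symbols place them in the PCDHA, PCDHB or PCDHG cluster. That rule uses no measured value, but the family was chosen with earlier results of these data known. The rule gave 52 of the 63677 genes of the table: 15 in PCDHA, 16 in PCDHB and 21 in PCDHG. In the hg19 coordinates of the table they ran from chr5:140165876 to chr5:140892546, with PCDHA at chr5:140165876-140391936, PCDHB at chr5:140430979-140627799 and PCDHG at chr5:140710252-140892546.

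Each established line, HepG2, SNU398 and SNU475, carried the genotype label wild type and entered with 4 groups. These were decitabine (5-Aza-CdR, a cytosine analogue that traps DNA methyltransferases) at 100 nM, GSK-126 (which blocks EZH2, the enzyme of PRC2 that methylates histone H3) at 500 nM, both drugs together (the combination), and DPBS, the buffer given as vehicle. Drugs were added daily for 3 days. HepG2 and SNU398 cells were harvested at day 14 and SNU475 cells at day 21, so harvest time and the SNU475 line cannot be told apart. Each group had 2 libraries, A and B, of ribosome-depleted total RNA. Nothing in the labels gives the culture of origin of A or B, so the p-values measure the spread between these libraries, which may be technical.

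Clustered protocadherins are cadherin-family receptors of the cell surface that bind copies of themselves on neighbouring cells. They are best known in neurons, where single cells switch on different members and the resulting surface code lets a cell tell its own branches from those of others. In PCDHA and PCDHG each variable exon has its own promoter and is spliced to constant exons shared by the whole cluster, whereas PCDHB genes consist of single coding exons of their own. Most promoters carry a conserved sequence element that is known to be bound by CTCF with cohesin, and promoter DNA methylation, PRC2 and SMCHD1 are known repressors of the locus. The last genes of PCDHA and PCDHG, PCDHAC1, PCDHAC2, PCDHGC3, PCDHGC4 and PCDHGC5, are the C-type members, of which several are not under random promoter choice in neurons.

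The promoters of the members that the results turn on are shown first, because each member has its own promoter and the words around the shared element differ between clusters. The sequences are from RefSeq on GRCh38.p14, plus strand, in windows of 250 bases before to 50 after the gene start, a different build from the table, and are used for sequence only. A window was found for 45 of the 52 members, and 4 genes had 2 windows, giving 49. CGCT, the core of the conserved sequence element, stood in 48 of the 49 windows on the sense strand, against 54.33% of all 35116 promoters of this length. The most frequent 8-base extension of that core differed between clusters. Each was picked from these same windows and is a description. ATGTCGCT was in 9 of 13 PCDHA windows, GTGGCGCT in 12 of 13 PCDHB windows and GCCGCTGT in 12 of 23 PCDHG windows, and none of the 3 was found in a window of another cluster on either strand. Of all promoters, 0.154%, 0.638% and 0.897% held these words on the sense strand, and 0.234%, 1.15% and 1.635% on either strand. A longer CTCF-like pattern was found in 0 of the 49 windows and in 1.025% of all promoters on the sense strand and 1.771% on either strand.

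Below are stretches of 40 bases around the 8-base word of the cluster, in capitals, from members described later. A match to the word alone does not show that a promoter carries the conserved element, and binding of CTCF was not measured. The pair from PCDHA is PCDHA4, without reads in HepG2 DPBS cells, and PCDHA10, the highest PCDHA gene by its mean over all libraries.
PCDHA4, chr5:140806975-140807014: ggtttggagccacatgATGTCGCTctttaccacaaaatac
PCDHA10, chr5:140855837-140855876: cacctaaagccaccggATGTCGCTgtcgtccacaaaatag

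The PCDHB stretches are from genes described further on.
PCDHB2, chr5:141094540-141094579: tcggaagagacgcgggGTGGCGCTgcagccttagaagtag
PCDHB3, chr5:141100389-141100428: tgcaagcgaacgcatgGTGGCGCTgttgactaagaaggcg
PCDHB8, chr5:141177773-141177812: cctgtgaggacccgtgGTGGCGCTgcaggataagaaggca
PCDHB13, chr5:141213861-141213900: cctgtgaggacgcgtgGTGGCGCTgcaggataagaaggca
PCDHB14, chr5:141223259-141223298: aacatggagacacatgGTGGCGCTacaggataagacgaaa

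The PCDHG stretches include the C-type genes PCDHGC3 and PCDHGC4 beside the variable genes PCDHGB4 and PCDHGA10.
PCDHGB4, chr5:141387615-141387654: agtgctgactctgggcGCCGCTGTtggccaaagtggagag
PCDHGA10, chr5:141412929-141412968: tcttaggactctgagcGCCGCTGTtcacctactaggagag
PCDHGC3, chr5:141475878-141475917: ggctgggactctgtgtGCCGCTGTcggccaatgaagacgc
PCDHGC4, chr5:141484950-141484989: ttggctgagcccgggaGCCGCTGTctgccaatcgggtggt

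The whole window of PCDHB5, the member with the highest level in the data, is shown with the element in capitals. It holds 6 CpG dinucleotides.
PCDHB5, chr5:141134956-141135255: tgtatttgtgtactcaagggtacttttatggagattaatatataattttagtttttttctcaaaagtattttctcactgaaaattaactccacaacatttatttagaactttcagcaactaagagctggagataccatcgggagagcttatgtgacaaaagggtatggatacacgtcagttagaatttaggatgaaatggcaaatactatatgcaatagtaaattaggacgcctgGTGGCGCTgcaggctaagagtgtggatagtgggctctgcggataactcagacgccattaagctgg

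Member promoters were poor in CpG, with a median of 7 per window (quartiles 6 and 11) against 14 for all promoters (quartiles 4 and 28). Across the 45 members with a window, the CpG count and the log2 change had a Spearman correlation of -0.37 for decitabine in HepG2 cells and -0.29 for the combination there. It was -0.18 for the combination in SNU398 cells and 0.17 in SNU475 cells. These are descriptions across genes, which share libraries and neighbours and are not independent replicates.

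The table held RPKM, reads scaled for gene length and library size, and whole reads could be recovered from it. Reads in genes of the table made up 57.2 to 69.5% of the reads used as each library's denominator, and the members' own read counts are given where they are low. RPKM values were divided by a factor per library, between 0.847 and 1.158, so that the median ratio of steadily measured genes was equal across libraries. Levels below are these scaled RPKM values. The lines could be told apart by markers: ALB, the liver albumin gene, averaged 5470 ± 90.4 RPKM in HepG2 DPBS cells (SD, n = 2) and VIM, an intermediate filament gene of mesenchymal cells, 0.18 ± 0.0194. In the SNU398 DPBS libraries VIM averaged 327 ± 3.21 and in the SNU475 DPBS libraries 176 ± 4.50, while ALB was between 0.34 and 24.1 in the 4 of them. The summed level of the epithelial markers EPCAM, KRT8, KRT18 and CDH1 was 206 to 209 RPKM in HepG2 DPBS libraries. It was 5.6 to 6.37 in SNU398 and 605 to 619 in SNU475 DPBS libraries. SNU398 and SNU475 cells, both high in VIM, thus differed in epithelial markers.

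Genes of one line appeared at trace level in libraries of others. ALB reached 0.543% of its HepG2 mean in the SNU398 decitabine A library and 0.591% in the SNU475 DPBS A library. PCDH9, a non-clustered protocadherin of SNU398 cells, reached 0.416% of its SNU398 mean in the HepG2 combination B library. The highest such share for the 4 genes followed was 0.653%, for AFP in SNU475 DPBS A. Members with low levels are therefore set beside the level such a trace would give.

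In DPBS cells the cluster with the largest sum was PCDHB in HepG2 and SNU398 cells and PCDHG in SNU475 cells. The sum over PCDHB was 6.72 ± 0.029 RPKM in HepG2 cells, 30.3 ± 0.785 in SNU398 cells and 0.165 ± 0.0013 in SNU475 cells (SD, n = 2 each). The sum over PCDHA was 0.182 ± 0.013, 3.89 ± 0.0175 and 0.0886 ± 0.030 in the same order of lines, and the sum over PCDHG 1.73 ± 0.11, 2.66 ± 0.0795 and 7.98 ± 0.532. SNU398 cells thus had the highest PCDHA and PCDHB sums and SNU475 cells the highest PCDHG sum, with no overlap of libraries between these lines. In bulk RNA, fewer cells with a transcript and less of it per cell cannot be told apart.

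A few genes made up most of each sum. PCDHB2 held 58.9 to 63.1% of the PCDHB sum in HepG2 DPBS libraries and PCDHGB4 53.7 to 55.2% of the PCDHG sum. In SNU398 DPBS libraries PCDHB5 held 34.9 to 35.2% of the PCDHB sum and PCDHGA10 43.2 to 43.3% of the PCDHG sum. SNU475 DPBS libraries had PCDHGB4 at 25.7 to 26.3% of the PCDHG sum. At a level of at least 0.5 RPKM, 3 and 4 members were found in the HepG2 DPBS libraries, 11 in each SNU398 DPBS library, and 4 and 5 in the SNU475 DPBS libraries. The 52 members together drew 1330 and 1287 reads in HepG2 DPBS libraries, 8921 and 8159 in SNU398, and 2006 and 2090 in SNU475.

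**Figure D1:**
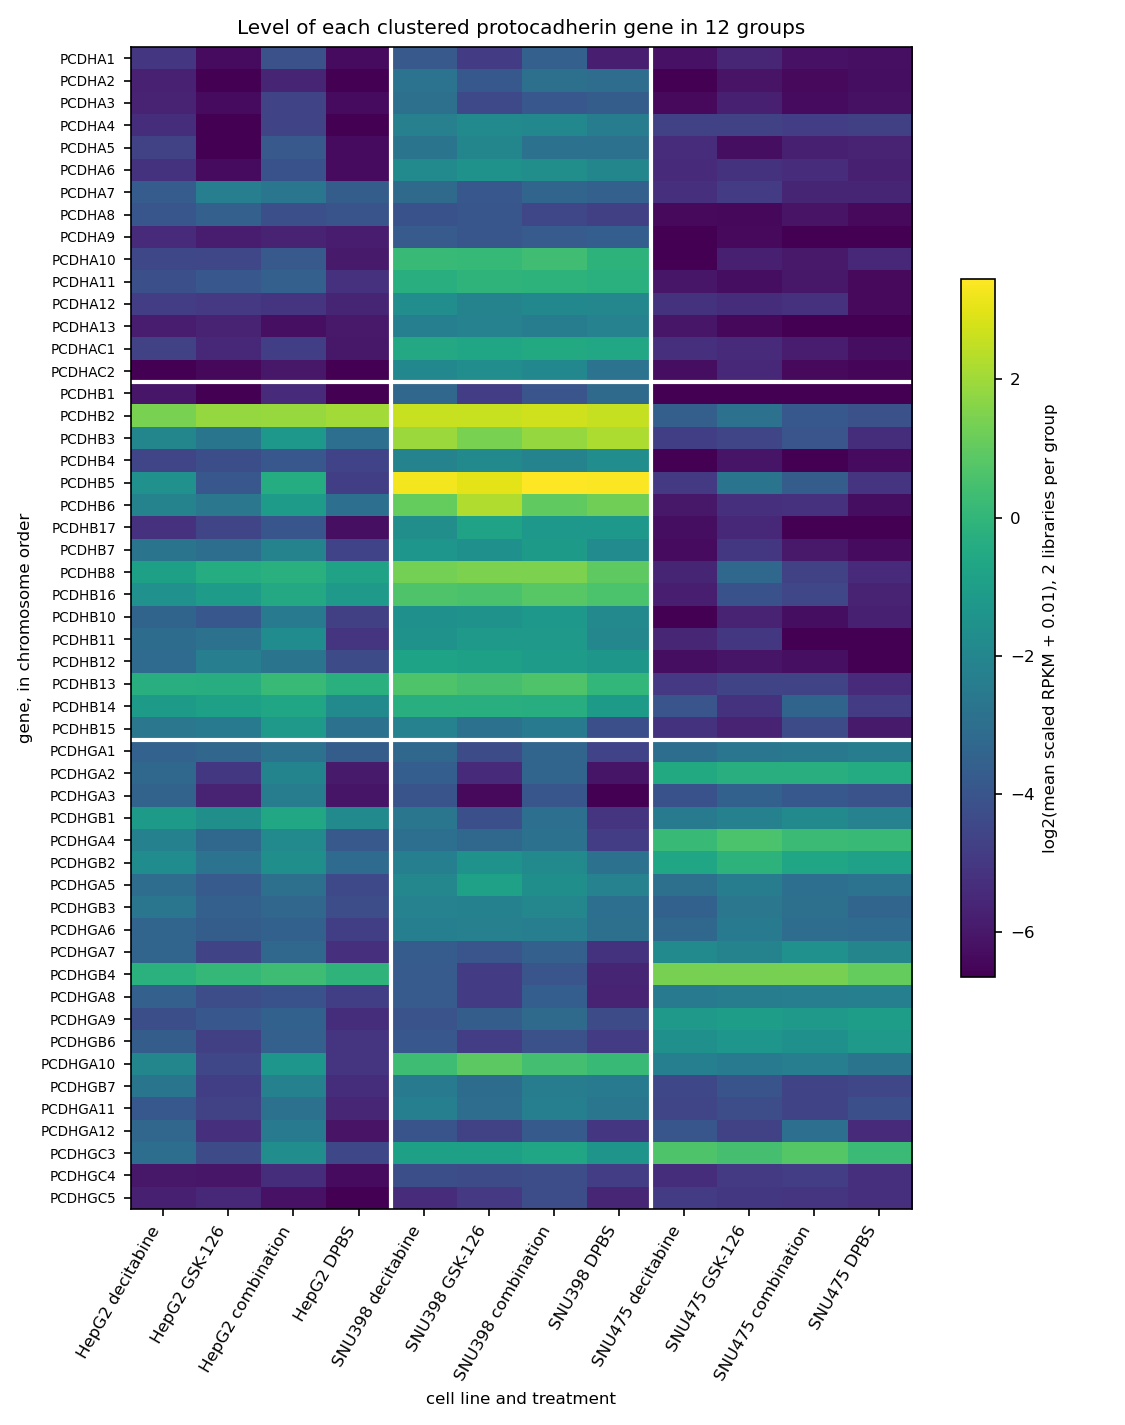
Mean level of each of the 52 members (rows, in chromosome order, with white lines between PCDHA, PCDHB and PCDHG) in the 12 groups (columns), as log2 of scaled RPKM plus a small constant. The PCDHA and PCDHB rows are bright in SNU398 cells, a few PCDHB rows and PCDHGB4 in HepG2 cells, and PCDHG rows in SNU475 cells.

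Levels compared between genes of PCDHA and PCDHG carry a limit. In the GENCODE v29 annotation, 19.2 to 56.6% of the exon bases of a PCDHA gene (median 46.5%) and 27.6 to 64.4% of a PCDHG gene (median 43.8%) are shared with other genes of the cluster, and for PCDHB genes the share was 0%. How reads in shared exons were assigned is not stated in the labels, and its part in the levels of PCDHA and PCDHG genes against PCDHB genes was not tested. In the SNU475 DPBS libraries PCDHGC4 held 4 reads in each, beside 508 and 521 for PCDHGB4 of the same cluster.

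Changes were tested in 2 ways, each over all genes that passed its filter with Benjamini-Hochberg adjusted p under 0.05 as the call. The first was limma on log2(scaled RPKM + 0.5) for the 19377 genes with at least 0.5 RPKM in 2 or more libraries, among them 22 members. Its log2 changes are small for low genes because of the constant of 0.5. The second was voom on the recovered reads for the 23370 genes with at least 10 reads in 2 or more libraries, among them 51 members and not PCDHGC5. Members that pass a filter only through the group in which they are high had to differ, so the counts describe the members tested and not the whole family.

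In HepG2 cells most tested members of all 3 clusters were called higher with the combination, though most PCDHA calls rested on few reads. The voom fit called 44 of 51 members higher and 0 lower, where 41.9% of all genes were called higher and 20.4% lower. The members higher were 11 of 15 tested in PCDHA, 14 of 16 in PCDHB and 19 of 20 in PCDHG, and 39 of them changed at least 2-fold. The median log2 change was 2.04 over the members, or 1.96 with members that had no DPBS read set at a floor of 3 reads over the group or left out, and 0.35 over all genes. In the limma fit 20 of 22 members were called higher and 1 lower, where 40.6% of genes were called higher and 25.9% lower. Under quantile normalization, which makes every library's distribution equal, the limma fit called 8 of the 22 higher and 1 lower, and the share of all calls that were higher was 47.9% in place of 61%.

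PCDHB5 had the largest rise of the 22 members of the limma fit in HepG2 cells. Its level was 0.72 and 0.76 RPKM in combination libraries (59 and 67 reads), against 0.030 and 0.0241 in DPBS libraries (4 and 3 reads). Decitabine libraries lay between, at 0.278 and 0.392, and GSK-126 libraries were at 0.0239 and 0.0905, with 1 below both DPBS libraries and 1 above both. The voom log2 change was 4.62 ± 0.49 for the combination (SE, adjusted p = 2.8e-09), 3.46 ± 0.51 for decitabine (adjusted p = 1.6e-06) and 0.73 ± 0.61 for GSK-126 (adjusted p = 0.37). The voom combination changes of 3 PCDHG genes outside the limma fit, named after their values were seen, were of like size: 4.65 ± 0.68 for PCDHGA3 (adjusted p = 9.6e-07), 4.57 ± 0.50 for PCDHGA2 (adjusted p = 6.2e-09) and 4.55 ± 0.64 for PCDHGA12 (adjusted p = 5.1e-07). These 3 had 21 to 35 reads in each combination library, against 1 or 2 in each DPBS library.

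PCDHGA10, a variable member of the A subfamily of PCDHG, moved in the same order. It stood at 0.377 and 0.392 RPKM in HepG2 combination libraries, 0.204 and 0.269 with decitabine, 0.0353 and 0.0344 with GSK-126, and 0.0144 and 0.0252 in DPBS. All drug libraries lay above both DPBS libraries, and those with decitabine, alone or combined, lay above the rest. The log2 change was 4.21 ± 0.39 for the combination (voom, adjusted p = 2e-10) and 3.5 ± 0.40 for decitabine (adjusted p = 2.1e-08), and 0.83 ± 0.48 for GSK-126 (adjusted p = 0.17).

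PCDHB3 and PCDHB6, PCDHB genes that were high in SNU398 cells, had 12 to 22 reads in each DPBS library. PCDHB3 was 0.491 and 0.332 RPKM with the combination, 0.194 and 0.283 with decitabine, 0.138 and 0.149 with GSK-126, and 0.122 and 0.116 in DPBS. PCDHB6 was 0.457 and 0.455 with the combination, 0.194 and 0.241 with decitabine, 0.116 and 0.182 with GSK-126, and 0.149 and 0.0866 in DPBS. For both genes the combination libraries lay above all others of the line, and for PCDHB6 the GSK-126 and DPBS libraries overlapped. The combination changes were 1.74 ± 0.40 (voom, adjusted p = 0.00042) and 1.97 ± 0.35 (adjusted p = 1.8e-05). In the limma fit the decitabine change of both was called, with 0.25 ± 0.09 for PCDHB3 (adjusted p = 0.024) and 0.22 ± 0.06 for PCDHB6 (adjusted p = 0.0075), and both turned negative and lost the call under quantile normalization.

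PCDHB2, the highest member of HepG2 cells, fell with decitabine. Its levels were 2.63 and 2.69 RPKM with decitabine, 3.77 and 3.40 with GSK-126, 3.72 and 3.66 with the combination, and 4.23 and 3.97 in DPBS. Both decitabine libraries lay below all others, and all 6 drug libraries lay below both DPBS libraries. The log2 change was -0.62 ± 0.09 for decitabine (voom, adjusted p = 9.9e-07) and -0.19 ± 0.08 for GSK-126 (adjusted p = 0.048). For the combination it was -0.15 ± 0.09 (adjusted p = 0.13) in the voom fit and -0.13 ± 0.05 (adjusted p = 0.036) in the limma fit.

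PCDHB8, PCDHB13 and PCDHB14, expressed in both HepG2 and SNU398 cells, changed by less than PCDHB5 did. PCDHB8 was 0.798 and 0.863 RPKM with the combination, 0.516 and 0.517 with decitabine, 0.741 and 0.767 with GSK-126, and 0.475 and 0.626 in DPBS. PCDHB13 was 1.03 and 1.14 with the combination, 0.794 and 0.783 with decitabine, 0.82 and 0.74 with GSK-126, and 0.825 and 0.857 in DPBS. PCDHB14 was 0.557 and 0.63 with the combination, 0.404 and 0.47 with decitabine, 0.536 and 0.521 with GSK-126, and 0.242 and 0.298 in DPBS. Combination libraries were the highest for all 3 genes, but decitabine libraries of PCDHB8 lay within the DPBS range and those of PCDHB13 below it. The combination changes in the voom fit were 0.61 ± 0.21 for PCDHB8 (adjusted p = 0.011), 0.37 ± 0.14 for PCDHB13 (adjusted p = 0.026) and 1.14 ± 0.25 for PCDHB14 (adjusted p = 0.00025).

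PCDHGB4, the leading PCDHG gene of HepG2 cells, was 1.31 and 1.13 RPKM with the combination, 0.911 and 0.827 with decitabine, 1.02 and 1.08 with GSK-126, and 0.908 and 0.967 in DPBS. Its combination libraries were above the others, with a log2 change of 0.37 ± 0.16 (voom, adjusted p = 0.042). The C-type gene PCDHGC3, whose promoter is not chosen at random in neurons, was 0.21 and 0.391 with the combination, 0.137 and 0.0957 with decitabine, 0.0341 and 0.0447 with GSK-126, and 0.0322 and 0.0395 in DPBS. PCDHGC3 libraries with decitabine, alone or combined, stood above those without it. Its combination change was 2.97 ± 0.41 (adjusted p = 2.9e-07).

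PCDHA genes stayed close to the limit of detection in HepG2 cells. PCDHA10 had 8 and 11 reads in combination libraries, 6 and 8 with decitabine, 9 and 6 with GSK-126, and 1 and 2 in DPBS. PCDHA11 had 14 and 9 reads with the combination, 10 and 8 with decitabine, 9 and 15 with GSK-126, and 3 and 5 in DPBS. PCDHAC1 had 6 and 3 reads with the combination, 7 and 6 with decitabine, 3 and 3 with GSK-126, and 1 and 2 in DPBS. Every drug library of these 3 genes held more reads than its DPBS libraries, and the summed PCDHA level was 0.62 ± 0.0862 RPKM with the combination against 0.182 ± 0.013 in DPBS (SD, n = 2 each). PCDHAC2 had 1 and 1 read with the combination and 0 in both DPBS libraries, PCDHGC4 2 and 2 against 1 and 0, and PCDHGC5 1 and 0 against 0 and 0. PCDHAC2 (adjusted p = 0.0058) and PCDHGC4 (adjusted p = 0.0092) were among the voom calls with the combination, as was PCDHB1 with 1 and 1 read against 0 and 0 (adjusted p = 0.012), and PCDHGC5 was not tested. At 2 or fewer reads per library, no order of the groups can be read for these genes. Under quantile normalization the limma combination changes of PCDHA10 and PCDHA11 in HepG2 cells turned negative, at -0.014 and -0.062.

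Of the 44 members called higher with the combination in the voom fit, 15 had up to 3 DPBS reads over both libraries, 16 had 4 to 19 and 13 had at least 20. For the first 15 the size of the change is set by few reads. Most of the PCDHA genes called were among them: PCDHA1, PCDHA2, PCDHA3, PCDHA4, PCDHA5, PCDHA6, PCDHA10, PCDHAC1 and PCDHAC2. PCDHA4, for example, had 9 and 1 reads with the combination and 0 in both DPBS libraries. All 44 stood, in combination libraries, above the level that a trace of 0.653% of the highest other line would give. Leaving out 1 library of the line gave 34 to 44 calls.

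Markers of cell types were looked at in the same comparison with the limma fit, where 40.6% of all genes were called higher and 25.9% lower. With so few genes per list, the counts are descriptions. Of 4 epithelial markers all 4 were higher with the combination in HepG2 cells, and their summed level was 472 to 497 RPKM against 206 to 209 in DPBS libraries, with KRT18, a keratin, changing by 1.39 ± 0.20 (limma, adjusted p = 1.9e-05). Of 3 mesenchymal markers 2 were higher, with sums of 19.5 to 21.3 against 13.1 to 13.2, and VIM was 1.82 to 2.99 RPKM against 0.167 to 0.194 (2.06 ± 0.19, adjusted p = 1.8e-07). Of 5 tested entries for neuronal markers 3 were higher and 0 lower, with sums of 0.931 to 1.05 against 0.317 to 0.324. Of 5 hepatocyte markers 0 were called higher and 1 lower (TTR), with sums of 5960 to 6000 against 10700 to 10800. ALB changed by -1.38 ± 1.39 (limma, adjusted p = 0.41) and AFP by -1.88 ± 1.11 (adjusted p = 0.15), and neither was called. Their SE come from the spread over all 24 libraries, including those where these genes varied at trace level. The missing calls therefore do not show that ALB and AFP were unchanged. No marker was at 0 in both combination libraries apart from 1 of 2 entries for TUBB3, a neuronal tubulin. The part of these changes in the rise of the members was not tested.

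Decitabine alone raised fewer members in HepG2 cells. The voom fit called 32 of 51 higher and 1 lower (PCDHB2), where 36.2% of all genes were called higher and 14.6% lower. In PCDHG 17 of 20 tested members were higher, in PCDHB 8 of 16 and in PCDHA 7 of 15. By DPBS reads over both libraries, 11 of the 32 had up to 3, 16 had 4 to 19 and 5 had at least 20. The median log2 change was 1.53 over the members, 1.52 with the floor, and 0.26 over all genes. In the limma fit 11 of 22 were higher and 2 lower, where 35.9% of genes were called higher and 18.3% lower. That count was 2 higher and 5 lower under quantile normalization, with 46.3% of all calls higher in place of 66.3%. It was 10 higher and 2 lower without scaling, with 53.3% of all calls higher (29 and 1 in the voom fit, with 60.1% in place of 71.2%), and 7 higher and 1 lower without the decitabine B or the DPBS B library.

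GSK-126 alone raised few members in HepG2 cells. The voom fit called 11 of 51 higher and 1 lower (PCDHB2), where 27.9% of all genes were called higher and 18.2% lower, so the share of members was below that of all genes. The 11 were PCDHA7, PCDHA10 and PCDHA11, PCDHB17, PCDHB7, PCDHB11, PCDHB12 and PCDHB14, and PCDHGA6, PCDHGA9 and PCDHGA11. PCDHB12 reached 0.168 and 0.207 RPKM with GSK-126 against 0.0189 and 0.0603 in DPBS, a log2 change of 2.35 ± 0.48 (adjusted p = 0.00015). PCDHA7 was the highest PCDHA gene in HepG2 DPBS libraries, with 38 and 42 reads under GSK-126 and 15 and 17 in DPBS, and a change of 1.44 ± 0.33 (adjusted p = 0.00056). The limma fit called 3 of 22 higher and 1 lower, where 31% of genes were called higher and 21.7% lower. It called 5 higher and 2 lower under quantile normalization and 2 higher and 0 lower without the DPBS A library.

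Adding GSK-126 to decitabine in HepG2 cells raised some members above their level with decitabine alone, most of them PCDHB genes. The voom fit called 18 of 51 members higher and 0 lower, where 25.3% of all genes were called higher and 19.4% lower. These were 10 of 16 PCDHB members, 3 of 15 PCDHA members and 5 of 20 tested PCDHG members. Named examples are PCDHB5 (1.16 ± 0.28, adjusted p = 0.0012), PCDHB16 (1.01 ± 0.22, adjusted p = 0.00052) and PCDHB2 (0.47 ± 0.10, adjusted p = 0.00027). PCDHB5 was already called higher with decitabine alone. PCDHB2 had fallen with decitabine, and its mean with the combination was still below DPBS (3.69 against 4.1 RPKM). The limma fit called 13 of 22 higher and 0 lower, where 30% of genes were called higher and 25.8% lower. The voom count was 11 without the decitabine A library and 10 without the combination A library, all higher.

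The interaction, the combination change less the sum of both single-drug changes, asks whether the drugs together differ from a sum on the log2 scale, the question the series title names as synergy. In HepG2 cells the limma fit called 8 of 22 members higher and 1 lower, where 25.1% of genes were called higher and 27.9% lower. The voom fit called 3 of 51 higher and 2 lower, where 18.3% of genes were called higher and 23% lower. The 3 were PCDHB2 (0.66 ± 0.13, adjusted p = 8.1e-05), PCDHB16 (0.87 ± 0.30, adjusted p = 0.021) and PCDHB13 (0.56 ± 0.21, adjusted p = 0.032), which were all expressed in DPBS cells. The 2 lower were PCDHB12 and PCDHGB3. The constant of 0.5 bends the log scale for low genes: PCDHB5 had an interaction of 0.50 ± 0.10 in the limma fit (adjusted p = 0.00064) and 0.42 ± 0.68 in the voom fit (adjusted p = 0.68), and PCDHGA10 0.22 ± 0.08 (adjusted p = 0.021) and -0.12 ± 0.53 (adjusted p = 0.9). The voom count was 1 higher and 0 lower without decitabine A, 1 and 2 without decitabine B or combination B, and 1 and 1 without DPBS B.

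**Figure D2:**
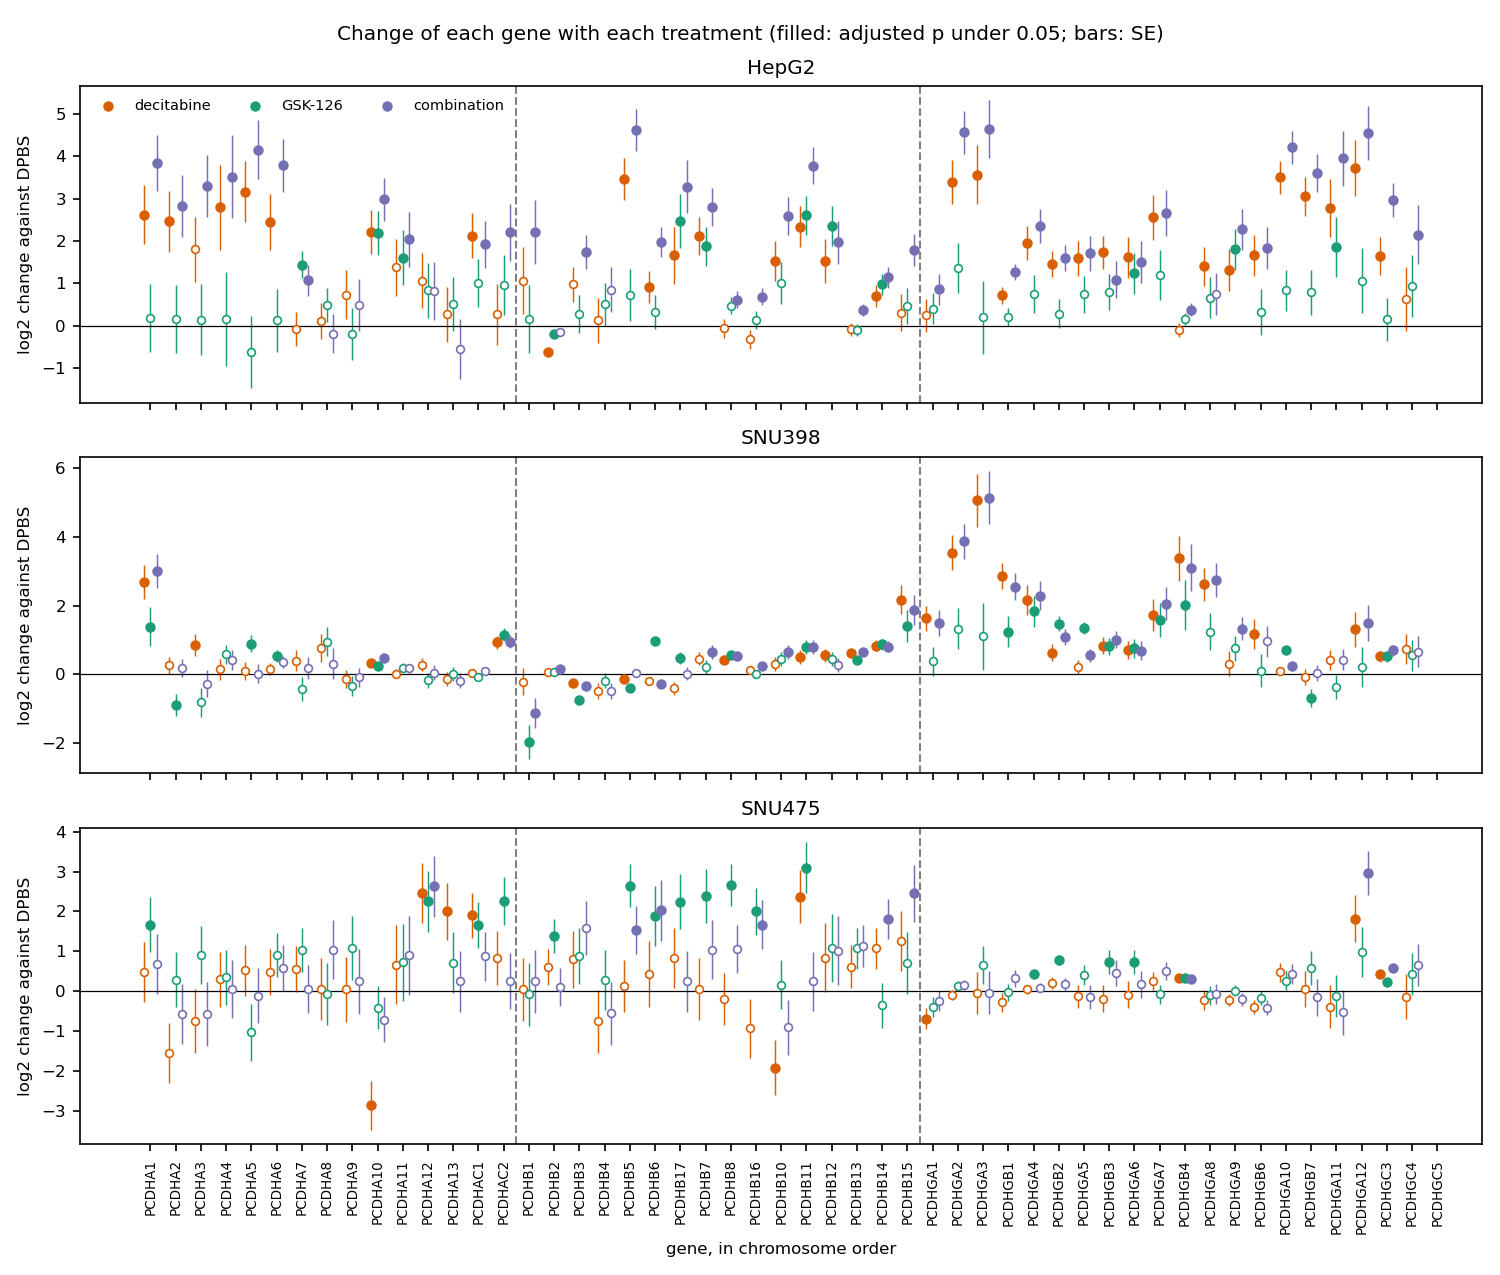
Log2 change of each member against DPBS in the voom fit (vertical axis, bars SE), by line (panels) and drug (colours), with members in chromosome order and dashed lines between PCDHA, PCDHB and PCDHG. Filled points passed an adjusted p under 0.05: 44 combination points in HepG2, 31 in SNU398 and 9 in SNU475. Points of members without DPBS reads, such as PCDHGA3 in SNU398, depend on the count that voom adds, and PCDHGC5 was not tested.

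SNU398 cells already expressed PCDHA and PCDHB genes, and their changes were smaller and mixed outside PCDHG. With the combination the voom fit called 28 of 51 members higher and 3 lower, where 32.3% of all genes were called higher and 16.8% lower. Of PCDHG 16 of 20 tested members were higher, of PCDHB 9 of 16 and of PCDHA 3 of 15, and 12 of the PCDHG members changed at least 2-fold against 1 PCDHB and 1 PCDHA member. The median log2 change was 0.53 over the members and 0.15 over all genes. The limma fit called 14 of 22 higher and 2 lower, where 28.9% of genes were called higher and 18.4% lower. It called 6 higher and 3 lower under quantile normalization, with 49.2% of all calls higher in place of 61%, and 10 higher and 0 lower without the DPBS A library.

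Some PCDHG members of SNU398 cells had few or no DPBS reads. PCDHGA3 had 13 and 15 reads with the combination, 15 and 15 with decitabine, 0 and 1 with GSK-126 and 0 in both DPBS libraries. Against a floor of 3 reads over the DPBS group it was at least 11.4-fold higher with the combination and at least 10.8-fold higher with decitabine. PCDHGB1 was 0.129 and 0.106 RPKM with the combination, 0.163 and 0.127 with decitabine, 0.0408 and 0.0501 with GSK-126, and 0.0251 and 0.013 in DPBS. All drug libraries were above DPBS for PCDHGB1, and its changes were 2.55 ± 0.39 (adjusted p = 3.6e-06), 2.86 ± 0.38 (adjusted p = 5.4e-07) and 1.24 ± 0.44 (adjusted p = 0.02) for the combination, decitabine and GSK-126. Both genes were picked after their values were seen.

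PCDHGB4 was barely present in SNU398 cells, with 11 and 16 reads with the combination, 17 and 20 with decitabine, 5 and 7 with GSK-126, and 7 and 0 in DPBS. Libraries with decitabine, alone or combined, lay above both DPBS libraries, and the GSK-126 libraries overlapped with DPBS (2.01 ± 0.73, adjusted p = 0.022). PCDHGA10, the leading PCDHG gene of this line, was 1.38 and 1.32 RPKM with the combination, 1.16 and 1.31 with decitabine, 1.82 and 1.95 with GSK-126, and 1.12 and 1.18 in DPBS. The GSK-126 libraries of PCDHGA10 were the highest, with a change of 0.71 ± 0.08 (adjusted p = 3.9e-09), while decitabine and DPBS libraries overlapped (0.10 ± 0.08, adjusted p = 0.35). PCDHGC3 was 0.588 and 0.599 with the combination, 0.557 and 0.494 with decitabine, 0.537 and 0.518 with GSK-126, and 0.368 and 0.364 in DPBS, with all drug libraries above DPBS and a combination change of 0.70 ± 0.16 (adjusted p = 0.00044).

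The high PCDHB genes of SNU398 cells did not move together. PCDHB5 was 11 and 10.7 RPKM with the combination, 9.62 and 9.54 with decitabine, 8.45 and 7.81 with GSK-126, and 10.7 and 10.5 in DPBS. PCDHB3 was 3.79 and 3.47 with the combination, 3.94 and 3.72 with decitabine, 2.82 and 2.56 with GSK-126, and 4.94 and 4.19 in DPBS. PCDHB6 was 1.95 and 1.99 with the combination, 2.12 and 2.09 with decitabine, 4.56 and 4.83 with GSK-126, and 2.56 and 2.26 in DPBS. GSK-126 libraries were thus the lowest for PCDHB5 and PCDHB3 and the highest for PCDHB6, a gene next to PCDHB5. The GSK-126 changes were -0.39 ± 0.05 for PCDHB5 (adjusted p = 3.1e-07), -0.76 ± 0.08 for PCDHB3 (adjusted p = 7.5e-09) and 0.96 ± 0.07 for PCDHB6 (adjusted p = 4.8e-12).

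With decitabine present these 3 genes did not show the same split. The interaction was 0.56 ± 0.07 for PCDHB5 (adjusted p = 2.5e-07), 0.68 ± 0.12 for PCDHB3 (adjusted p = 2.1e-05) and -1.06 ± 0.12 for PCDHB6 (adjusted p = 2.8e-08). All 3 had the sign opposite to the GSK-126 change, and the combination libraries of each lay closer to decitabine than to GSK-126 libraries. Over the members, the interaction in the voom fit was called higher for 2 (PCDHB3 and PCDHB5) and lower for 14 of 51, where 16.7% of genes were called higher and 21.3% lower. In the limma fit it was higher for 2 and lower for 8 of 22, where 18.4% of genes were called higher and 22.8% lower. Without scaling the limma interaction gave 4 higher and 5 lower, with 64.7% of all interaction calls higher in place of 44.7%, and the voom interaction 4 higher and 10 lower, with 63.4% in place of 43.8%.

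PCDHB2, PCDHB8, PCDHB13 and PCDHB14 were further PCDHB genes expressed in SNU398 cells. PCDHB2 was 6.72 and 6.38 RPKM with the combination, 6.06 and 6.05 with decitabine, 5.99 and 6.14 with GSK-126, and 5.74 and 5.94 in DPBS. PCDHB8 was 2.76 and 2.68 with the combination, 2.69 and 2.33 with decitabine, 2.86 and 2.67 with GSK-126, and 1.81 and 1.97 in DPBS. PCDHB13 was 1.68 and 1.49 with the combination, 1.62 and 1.5 with decitabine, 1.32 and 1.40 with GSK-126, and 1.01 and 1 in DPBS. In all 3 genes every drug library lay above both DPBS libraries, though for PCDHB2 by little (0.16 ± 0.05 with the combination, adjusted p = 0.013). PCDHB14 was 0.828 and 0.725 with the combination, 0.853 and 0.713 with decitabine, 0.851 and 0.767 with GSK-126, and 0.476 and 0.402 in DPBS. PCDHB14 showed the same separation, with changes of 0.81 ± 0.17 (adjusted p = 0.00017), 0.83 ± 0.16 (adjusted p = 0.00012) and 0.88 ± 0.17 (adjusted p = 4.7e-05) for the combination, decitabine and GSK-126. PCDHB16, chosen after its values were seen, averaged 1.75 ± 0.0371 RPKM with the combination, 1.6 ± 0.0479 with decitabine, 1.47 ± 0.112 with GSK-126 and 1.48 ± 0.0916 in DPBS (SD, n = 2 each). It passed with the combination (adjusted p = 0.022) and not with decitabine (adjusted p = 0.34) or GSK-126 (adjusted p = 0.96).

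PCDHA in SNU398 cells was led by PCDHA10, PCDHA11 and the C-type PCDHAC1. PCDHA10 was 1.22 and 1.30 RPKM with the combination, 1.15 and 1.13 with decitabine, 1.06 and 1.07 with GSK-126, and 0.939 and 0.881 in DPBS. PCDHA11 was 0.91 and 0.928 with the combination, 0.855 and 0.797 with decitabine, 1.01 and 0.871 with GSK-126, and 0.735 and 0.919 in DPBS. PCDHAC1 was 0.633 and 0.736 with the combination, 0.676 and 0.666 with decitabine, 0.626 and 0.596 with GSK-126, and 0.659 and 0.64 in DPBS. PCDHA10 separated in every drug group (combination 0.47 ± 0.08, adjusted p = 1.8e-05), whereas PCDHA11 overlapped with DPBS in every drug group, and neither PCDHA11 nor PCDHAC1 passed in any. The other PCDHA C-type gene, PCDHAC2, was 0.246 and 0.261 with the combination, 0.248 and 0.255 with decitabine, 0.31 and 0.281 with GSK-126, and 0.133 and 0.13 in DPBS. Its drug libraries were all above DPBS, by 0.94 ± 0.19 (adjusted p = 0.00014), 0.93 ± 0.19 (adjusted p = 0.00018) and 1.16 ± 0.19 (adjusted p = 5e-06) for the combination, decitabine and GSK-126.

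Decitabine alone in SNU398 cells gave 24 of 51 members higher and 2 lower (PCDHB3 and PCDHB5) in the voom fit, where 26.4% of all genes were called higher and 15% lower. The limma fit gave 8 of 22 higher and 1 lower, where 23.4% of genes were called higher and 15.4% lower. The voom count was 16 higher and 0 lower without the decitabine B library and likewise without the DPBS A library. Of all calls in the limma fit, 60.4% were higher, and 49.1% under quantile normalization, where 6 members were higher and 3 lower.

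GSK-126 alone gave 22 of 51 higher and 5 lower in the voom fit, where 30.1% of all genes were called higher and 20.2% lower. The 5 lower were PCDHA2, PCDHB1, PCDHB3, PCDHB5 and PCDHGB7. The limma fit gave 11 of 22 higher and 2 lower, where 30% of genes were called higher and 22.4% lower. Without scaling, 38.3% of all limma calls were higher, in place of 57.3%, and 41.1% of all voom calls in place of 59.9%, with 16 members higher and 7 lower in the voom fit. Few members differed between the combination and decitabine alone: 2 of 51 members were higher (PCDHB5 and PCDHGA9) and 1 lower (PCDHA3) in the voom fit, where 12.6% of genes were called higher and 7.98% lower. In the limma fit 1 of 22 was higher (PCDHB17) and 0 lower, where 12.5% of genes were called higher and 8.07% lower. These counts rested on single libraries: the voom count was 0 without decitabine B, 1 lower without decitabine A or combination A and 1 higher without combination B, and the limma call was lost without decitabine A or combination B.

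**Figure D3:**
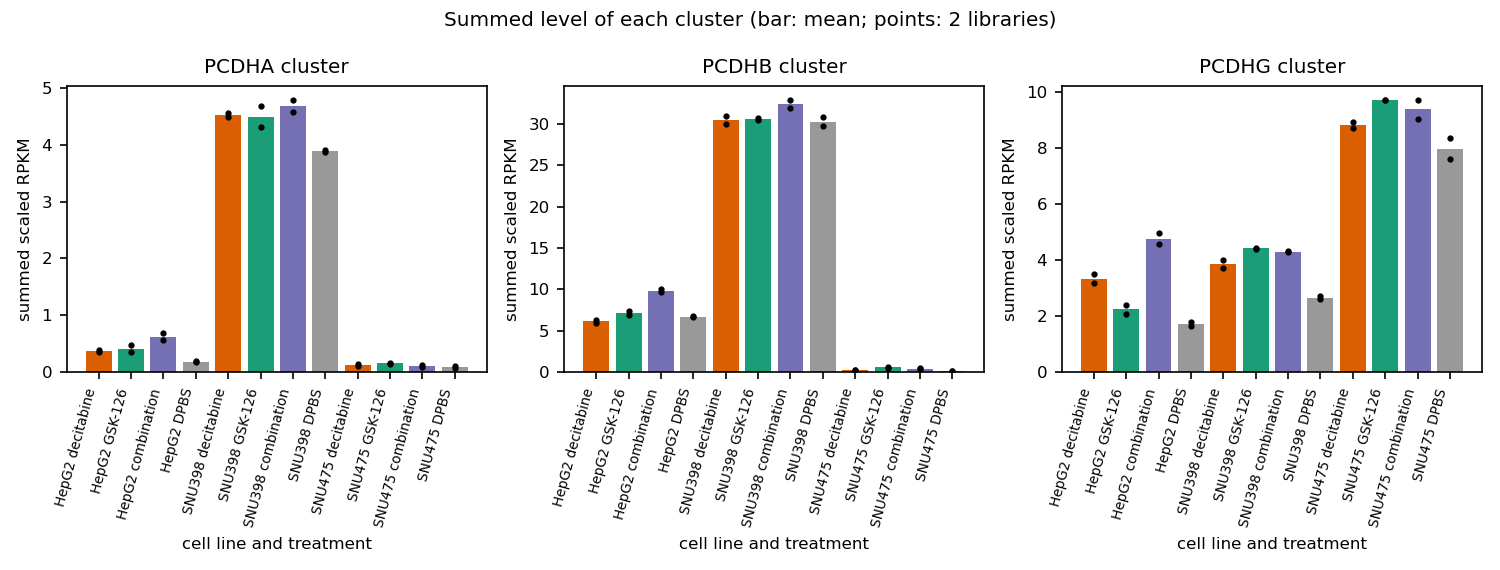
Sum of scaled RPKM over the members of PCDHA, PCDHB and PCDHG (panels) in each group; bars are means, points the 2 libraries, and each panel has its own scale. The PCDHG sum in HepG2 cells was 4.78 with the combination and 1.73 in DPBS, and the PCDHB sum in SNU398 cells was close to 30 in every group.

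In SNU475 cells, PCDHG genes were expressed in every group, few of them changed with the combination, and PCDHA and PCDHB genes were close to 0. The PCDHG sum was 9.40 ± 0.487 RPKM with the combination, 8.83 ± 0.143 with decitabine, 9.73 ± 0.00059 with GSK-126 and 7.98 ± 0.532 in DPBS (SD, n = 2 each). With the combination the voom fit called 9 of 51 members higher and 0 lower, where 24% of all genes were called higher and 26.5% lower. The limma fit called 2 of 22 higher (PCDHGB4 and PCDHGC3) and 0 lower, where 25.3% of genes were called higher and 29.6% lower. The share of members called was thus below that of all genes in both fits.

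PCDHGB4 was 2.42 and 2.73 RPKM with the combination, 2.69 and 2.55 with decitabine, 2.55 and 2.66 with GSK-126, and 2 and 2.15 in DPBS. PCDHGC3 was 1.63 and 1.82 with the combination, 1.48 and 1.67 with decitabine, 1.39 and 1.35 with GSK-126, and 1.09 and 1.23 in DPBS. All drug libraries of both genes lay above both DPBS libraries. The combination changes were 0.32 ± 0.09 (voom, adjusted p = 0.0044) and 0.58 ± 0.10 (adjusted p = 9.7e-06). PCDHGA10, at 0.173 and 0.203 RPKM with the combination, 0.175 and 0.217 with decitabine, 0.172 and 0.167 with GSK-126, and 0.144 and 0.135 in DPBS, had drug libraries above DPBS too but did not pass (0.43 ± 0.25 with the combination, adjusted p = 0.15).

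PCDHGA12, the last A-subfamily gene of PCDHG and chosen here after its values were seen, had the largest PCDHG change of SNU475 cells. It was 0.119 and 0.116 RPKM with the combination (24 and 27 reads), 0.0692 and 0.0403 with decitabine, 0.0367 and 0.0216 with GSK-126, and 0.0115 and 0.0163 in DPBS (3 and 4 reads). All drug libraries were above DPBS, in the order GSK-126, decitabine, combination. The changes were 2.96 ± 0.54 for the combination (adjusted p = 3.5e-05), 1.82 ± 0.58 for decitabine (adjusted p = 0.011) and 0.99 ± 0.62 for GSK-126 (adjusted p = 0.2). In HepG2 cells it had 24 and 21 reads with the combination, 14 and 18 with decitabine, 1 and 5 with GSK-126, and 1 and 1 in DPBS. In SNU398 cells its level was 0.0388 and 0.0851 RPKM with the combination, against 0.0182 and 0.0225 in DPBS, and the change was 1.5 ± 0.52 (adjusted p = 0.019).

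**Figure D4:**
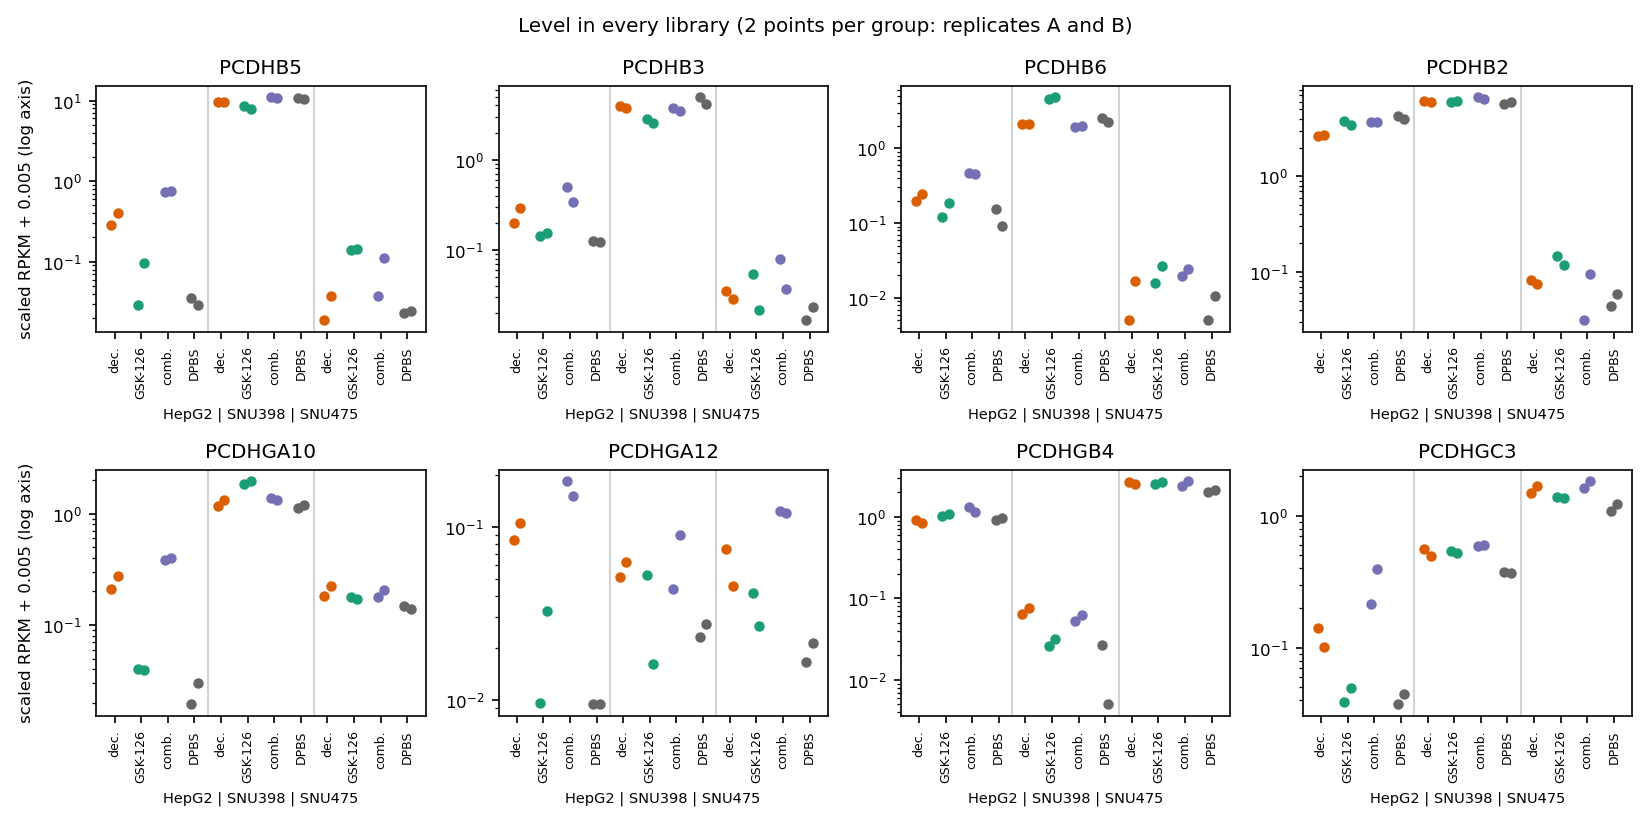
Scaled RPKM plus a small constant (log axis) of 8 members in all 24 libraries, by line and group (dec., decitabine; comb., combination). PCDHB5, PCDHGA10, PCDHGA12 and PCDHGC3 climb with decitabine and more with the combination in HepG2 cells, while PCDHB6 is highest with GSK-126 in SNU398 cells.

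GSK-126 alone called the most members in SNU475 cells: 18 of 51 higher and 0 lower in the voom fit, where 20.5% of all genes were called higher and 26.7% lower. Of the 18, 8 were PCDHB genes, 4 PCDHA genes and 6 PCDHG genes. By DPBS reads over both libraries, 8 of the 18 had up to 3, 4 had 4 to 19 and 6 had at least 20. The PCDHB sum was 0.593 ± 0.0361 RPKM with GSK-126 against 0.165 ± 0.0013 in DPBS (SD, n = 2 each). PCDHB5 had 22 and 23 reads with GSK-126, 4 and 15 with the combination, 2 and 5 with decitabine and 3 and 3 in DPBS. PCDHB8 had 12 and 18 reads with GSK-126, 3 and 4 with the combination, 2 and 1 with decitabine and 1 and 3 in DPBS. PCDHB2 had 22 and 18 reads with GSK-126, 3 and 12 with the combination, 11 and 10 with decitabine and 6 and 8 in DPBS. For these 3 genes the GSK-126 libraries lay above all other libraries of the line.

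The changes under GSK-126 were 2.64 ± 0.54 for PCDHB5 (adjusted p = 0.00016), 2.67 ± 0.53 for PCDHB8 (adjusted p = 0.00011) and 1.39 ± 0.42 for PCDHB2 (adjusted p = 0.007). In PCDHG, PCDHGB2 was 0.948 and 0.891 RPKM with GSK-126 against 0.478 and 0.591 in DPBS (0.79 ± 0.13, adjusted p = 1.4e-05), and PCDHGA4 1.42 and 1.56 against 1.04 and 1.16 (0.44 ± 0.10, adjusted p = 0.00079). The limma fit called 6 of 22 higher and 0 lower, where 21.5% of genes were called higher and 28.5% lower. The voom count was 9 without the DPBS A library, in which the trace of HepG2 genes was the highest. Of the 18 called, 17 stood above the level that a trace of 0.653% of the highest other line would give, and PCDHB6 did not. With the combination 7 of the 9 did, and PCDHB5 and PCDHB6 did not, and the count was 4 higher and 1 lower without DPBS A and 5 higher and 0 lower without DPBS B.

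Decitabine alone in SNU475 cells gave 7 of 51 members higher and 3 lower in the voom fit, where 23% of all genes were called higher and 24.6% lower. The 3 lower were PCDHA10, PCDHB10 and PCDHGA1. PCDHA10 had 0 reads in both decitabine libraries against 5 and 2 in DPBS, at least 2.25-fold lower with a floor of 3 reads over the group. The limma fit gave 2 of 22 higher (PCDHGB4 and PCDHGC3) and 0 lower, where 24.2% of genes were called higher and 27.3% lower. The voom count was 5 higher and 1 lower without decitabine A, and the limma count 1 higher and 0 lower without DPBS A.

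Against decitabine alone, the combination in SNU475 cells gave 2 of 51 higher and 1 lower in the voom fit, where 6.53% of genes were called higher and 9.14% lower. The limma fit gave 0 of 22 in both directions, where 7.39% of genes were called higher and 10.9% lower. At most 3 members were called with 1 library left out, and 0 without decitabine A in the voom fit. The interaction was higher for 1 and lower for 8 of 51 members in the voom fit, where 17.1% of genes were called higher and 15% lower. In the limma fit it was higher for 0 and lower for 4 of 22, where 19.7% of genes were called higher and 16.7% lower. The 4 were PCDHB2, PCDHGA4, PCDHGB2 and PCDHGB4. The limma count was 1 without decitabine A, without combination A or without DPBS A, and the voom count 2 to 9.

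The remaining named members were near the limit of detection in SNU475 cells. PCDHB3, PCDHB6, PCDHB13 and PCDHB14 had 0 to 12 reads in each of the 8 libraries. PCDHA11 had 0 to 3 reads and PCDHAC1 1 to 6. PCDHAC2 had 0 and 1 read with the combination, 1 and 1 with decitabine, 3 and 5 with GSK-126, and 1 and 0 in DPBS. The C-type genes PCDHGC4 and PCDHGC5 had 3 to 7 and 1 to 7 reads. PCDHAC1, PCDHAC2 and PCDHB6 were among the voom calls on these few reads. PCDHB14 had 11 and 12 reads with the combination against 6 and 2 in DPBS (1.81 ± 0.49, adjusted p = 0.0027).

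PCDHGC4 and PCDHGC5 were low everywhere. In SNU398 cells PCDHGC4 had 11 and 10 reads with the combination, 12 and 13 with decitabine, 13 and 7 with GSK-126, and 7 and 9 in DPBS. PCDHGC5 had 12 and 9 reads with the combination, 2 and 6 with decitabine, 6 and 5 with GSK-126, and 3 and 4 in DPBS. PCDHGC4 passed no DPBS comparison in SNU398 or SNU475 cells, and in HepG2 cells its combination call rested on 4 reads against 1.

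The difference between lines in the combination effect was tested for the named members that passed the RPKM filter, 13 genes in 3 line pairs. Of 39 differences 21 passed in the limma fit. In the voom fit, 10 of these 21 passed with the same sign, 3 had the same sign and did not pass, 7 had the opposite sign and did not pass, and 1 passed with the opposite sign. PCDHB5 changed by 1.20 more (log2) in HepG2 than in SNU398 cells (adjusted p = 1e-07) and by 1.10 more than in SNU475 cells (adjusted p = 1.5e-07). In the voom fit these differences were 4.59 ± 0.49 (adjusted p = 8.8e-09) and 3.09 ± 0.78 (adjusted p = 0.0013). PCDHGA10 also changed more in HepG2 cells than in either other line in both fits. PCDHB3 and PCDHB6 changed more in HepG2 than in SNU398 cells in both fits, but against SNU475 cells their limma differences of 0.45 and 0.59 stood beside voom differences of 0.14 ± 0.79 (adjusted p = 0.89) and -0.06 ± 0.84 (adjusted p = 0.96). The 1 called with opposite signs was PCDHA10 between HepG2 and SNU398 cells, at -0.17 in the limma fit and 2.51 ± 0.51 in the voom fit (adjusted p = 0.00018). The constant of 0.5 understates changes of genes near 0, as PCDHA genes were in HepG2 cells and PCDHB genes in SNU475 cells, so for such genes the limma differences give no order of the lines.

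Repeat elements inside the same spans were read from a separate deposited table of repeat loci. Loci overlapping a member gene were left out in the PCDHB span and kept in the PCDHA and PCDHG spans. The PCDHA and PCDHG repeat sums may thus hold reads also counted for members and are not an independent readout. The 203 loci in the PCDHG span summed to 1.44 ± 0.336 scaled RPM with the combination, 1.27 ± 0.0056 with decitabine, 0.893 ± 0.107 with GSK-126 and 0.503 ± 0.165 in DPBS in HepG2 cells (SD, n = 2 each). In SNU398 cells they summed to 1.13 ± 0.0999 RPM with the combination, 1.19 ± 0.00863 with decitabine, 0.876 ± 0.00414 with GSK-126 and 0.511 ± 0.0302 in DPBS. In SNU475 cells the sums were 1.99 ± 0.283 with the combination, 2.22 ± 0.377 with decitabine, 2.59 ± 0.136 with GSK-126 and 2.27 ± 0.125 in DPBS. All drug libraries lay above DPBS in HepG2 and SNU398 cells, and the groups overlapped in SNU475 cells apart from GSK-126. The 211 loci in the PCDHB span gave 1.69 ± 0.0644 RPM with the combination in HepG2 cells, 1.83 ± 0.229 with decitabine, 3 ± 0.19 with GSK-126 and 1.81 ± 0.102 in DPBS. In SNU398 cells they gave 8.43 ± 1.18 RPM with the combination, 8.19 ± 0.216 with decitabine, 7.53 ± 0.266 with GSK-126 and 7.21 ± 0.164 in DPBS. The 266 loci in the PCDHA span stayed at or under 0.27 RPM in every HepG2 library. In SNU398 cells they gave 2.96 ± 0.077 RPM with the combination, 2.65 ± 0.0339 with decitabine, 2.42 ± 0.074 with GSK-126 and 3.29 ± 0.117 in DPBS, with every drug library below both DPBS libraries. The PCDHA gene sum ran the other way there, at 4.68 ± 0.157 RPKM with the combination, 4.52 ± 0.0515 with decitabine, 4.49 ± 0.258 with GSK-126 and 3.89 ± 0.0175 in DPBS. The repeat sums were compared without a test.

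Genes beside the clusters were looked at as neighbours, taken as all other genes of chromosome 5 within 500 kb of the members or between them. Of 31 protein-coding neighbours 24 passed the RPKM filter. In HepG2 cells 19 of the 24 were higher and 2 lower with the combination, with a median log2 change of 0.44 against 0.08 over all genes, where 40.6% of all genes were called higher and 25.9% lower. With decitabine 16 were higher and 5 lower, where 35.9% of all genes were higher and 18.3% lower, and with GSK-126 8 were higher and 9 lower, where the shares were 31% and 21.7%. With the combination 11 were higher and 3 lower in SNU398 cells, where 28.9% of all genes were higher and 18.4% lower. In SNU475 cells 10 were higher and 5 lower, where the shares were 25.3% and 29.6%. TAF7, a subunit of the general transcription factor TFIID encoded between PCDHB and PCDHG, averaged 29.4 RPKM with the combination in HepG2 cells against 22.9 in DPBS (0.35 ± 0.04, adjusted p = 1.6e-06). HARS2, a mitochondrial histidyl-tRNA synthetase gene before PCDHA, changed by 0.46 ± 0.05 (adjusted p = 1.8e-06), and HDAC3, a histone deacetylase gene beyond PCDHG, by -0.10 ± 0.03 (adjusted p = 0.016).

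Of the 12 non-clustered protocadherins, single genes elsewhere that share the cadherin repeats, 7 passed the filter. With the combination 2 were higher and 0 lower in HepG2 cells, 4 higher and 2 lower in SNU398 cells and 1 higher and 0 lower in SNU475 cells. Of all genes, 40.6%, 28.9% and 25.3% were called higher and 25.9%, 18.4% and 29.6% lower in HepG2, SNU398 and SNU475 cells. PCDH1, which also lies on this stretch of chromosome 5, rose with the combination in HepG2 cells (0.99 ± 0.04, adjusted p = 8e-12) and in SNU398 cells (0.34 ± 0.04, adjusted p = 3.2e-06). The other gene called in HepG2 cells was PCDH9 (0.41 ± 0.14, adjusted p = 0.015), used above to follow the trace of SNU398 genes, at 0.16 and 0.277 RPKM in combination libraries against 0.0532 and 0.023 in DPBS libraries, and the part of that trace in its change was not tested. PCDH10 rose in SNU398 cells (1.44 ± 0.05, adjusted p = 6.4e-12).

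Of 29 genes known to bind or regulate protocadherin promoters, all were tested. With the combination 10 were higher and 18 lower in HepG2 cells, 3 higher and 18 lower in SNU398 cells and 9 higher and 12 lower in SNU475 cells. The shares of all genes called higher were 40.6% in HepG2, 28.9% in SNU398 and 25.3% in SNU475 cells, and those called lower 25.9%, 18.4% and 29.6%. SMCHD1, a chromatin protein whose loss is known in mouse to raise clustered protocadherins, averaged 2.68 ± 0.0685 RPKM with the combination in HepG2 cells, 5.71 ± 0.102 with decitabine, 5.01 ± 0.33 with GSK-126 and 6.88 ± 0.0266 in DPBS (SD, n = 2 each). All its drug libraries lay below DPBS, with a combination change of -1.21 ± 0.03 (limma, adjusted p = 1.7e-13). Its combination change was -0.40 ± 0.03 in SNU398 (adjusted p = 1.2e-07) and -0.39 ± 0.03 in SNU475 cells (adjusted p = 8.6e-08). Its part in the rise of the members was not tested.

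CTCF, the factor that binds the conserved element, changed by -0.08 ± 0.03 with the combination in HepG2 cells (adjusted p = 0.036), -0.10 ± 0.03 in SNU398 cells (adjusted p = 0.017) and 0.18 ± 0.03 in SNU475 cells (adjusted p = 0.00014). EZH2 RNA, the target of GSK-126, changed by -0.88 ± 0.03 with GSK-126 alone in HepG2 cells (adjusted p = 1.5e-11), 0.32 ± 0.03 in SNU398 cells (adjusted p = 1.1e-06) and 0.51 ± 0.03 in SNU475 cells (adjusted p = 1.3e-08). DNMT1, the maintenance methyltransferase that decitabine traps, changed by -0.14 ± 0.03 with decitabine in HepG2 cells (adjusted p = 0.0004), -0.11 ± 0.03 in SNU398 cells (adjusted p = 0.0035) and 0.22 ± 0.03 in SNU475 cells (adjusted p = 6.7e-06). With GSK-126 alone, DNMT1 was lower in HepG2 (-0.77 ± 0.03, adjusted p = 4.4e-12) and SNU398 cells (-0.55 ± 0.03, adjusted p = 2.2e-10). RNA levels do not measure the inhibition of either enzyme. Of 16 genes for proteins that clustered protocadherins are known to bind or that cleave them, 15 were tested. With the combination 5 were higher and 7 lower in HepG2 cells, 8 and 1 in SNU398 cells, and 4 and 8 in SNU475 cells. Of all genes, 40.6%, 28.9% and 25.3% were called higher and 25.9%, 18.4% and 29.6% lower, in the same order of lines.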

How the data were processed

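RNA of 24 libraries was measured by stranded total RNA sequencing after ribosomal RNA removal, as single-end reads of 75 bases, per the labels' protocols. The submitters' processing notes name HISAT2, featureCounts and the build hg19, with no role or version; no source used here gives the annotation, the strand setting or the handling of reads that overlap several genes. The authors deposited RPKM per gene and RPKM per repeat locus. No sample column was left unused (0). The members and gene lists were chosen with earlier results of these data known.

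RPKM multiplied by gene length gave whole reads for 100% of the values checked, within 0.15 of a read, so depth was recovered. RPKM was scaled by median ratios over the 8211 genes with at least 1 RPKM in all libraries. limma (version 3.58.1, with statmod 1.5.0, R 4.3.3) was fitted to log2(scaled RPKM + 0.5) with 1 mean per group over 12 groups, with eBayes trend and robust settings, on 12 residual degrees of freedom. Tests were two-sided with Benjamini-Hochberg adjustment over all genes tested. voom, from limma, was run on the recovered reads with at least 10 reads in at least 2 libraries, a fit added after seeing that 30 members missed the filter on RPKM. Both fits were run on simulated data, where recovery was scored only for genes well covered in HepG2 DPBS libraries. Many members had few reads there, so the simulation does not show how well changes at low counts are recovered.

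Values by library, or as ranges where reads were few, are given for the 3 members of each cluster with the highest mean, the 3 with the largest combination change per line in the limma fit, and the C-type members; other members given with values were chosen after these were seen. The deposited RPKM of repeat loci was multiplied by locus length in kilobases, which gives RPM, divided by the same library factors and summed. Simple and low-complexity repeats were left out, as were loci overlapping a PCDHB member in the PCDHB span. Protein sequences were not used here. Python 3.11.15 with pandas 2.3.3, numpy 2.4.6 and matplotlib 3.10.9 was used.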

Additional observations from a re-analysis of the deposited data

Results flagged for a closer look

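The difference between lines in the combination effect (log2 change in the first line less that in the second, limma fit, Benjamini-Hochberg adjusted over all genes tested) passed for 21 of 39 tests of named members. Between HepG2 and SNU398 cells it was 1.20 for PCDHB5, 0.87 for PCDHB6, 0.85 for PCDHB3 and 0.60 for PCDHGA10. In the other direction it was -0.285 for PCDHB2, -0.226 for PCDHB13 and -0.172 for PCDHA10. Between HepG2 and SNU475 cells it was 1.10 for PCDHB5, 0.66 for PCDHGA10, 0.59 for PCDHB6, 0.45 for PCDHB3, 0.35 for PCDHB14, 0.30 for PCDHB8, 0.19 for PCDHB13 and 0.16 for PCDHA10. Between SNU398 and SNU475 cells it was 0.42 for PCDHB13, 0.39 for PCDHB8, 0.33 for PCDHA10, 0.28 for PCDHB14, -0.275 for PCDHB6 and -0.395 for PCDHB3. Adjusted p-values ran from 1e-07 to 0.035. In the voom fit the sign was opposite for PCDHA10 between HepG2 and SNU398 cells, for PCDHB6, PCDHB8, PCDHB13 and PCDHB14 between HepG2 and SNU475 cells, and for PCDHB8, PCDHB13 and PCDHB14 between SNU398 and SNU475 cells. Harvest time differed between SNU475 and the other lines and cannot be told apart from the line.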

How the results depend on the processing

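Counts of members called in the limma fit, higher and lower together, moved by more than 1.5 times as follows. Without scaling they were 2 for the combination against decitabine in SNU398 and 1 in SNU475. Under quantile normalization they were 7 for decitabine, 7 for GSK-126 and 9 for the combination in HepG2, 9 for the combination in SNU398, and 1 for the combination against decitabine in SNU475. With a pseudocount of 0.1 they were 7 for GSK-126 in HepG2, 5 for the combination and 1 for the combination against decitabine in SNU475, and with 1 they were 3 for the combination against decitabine in SNU398. With no filter (52 members tested) HepG2 gave 20, 7, 32 and 22 for decitabine, GSK-126, the combination and the combination against decitabine, SNU398 gave 15, 21, 29 and 2, and SNU475 gave 4 for decitabine and 5 for the combination. voom on the 22 members gave 8 for GSK-126 and 4 for the interaction in HepG2, 2 for the combination against decitabine in SNU398, and 4, 10, 6 and 2 for decitabine, GSK-126, the combination and the combination against decitabine in SNU475. voom with at least 10 reads in 2 libraries, chosen after seeing the data, gave 33, 12, 44 and 5 for decitabine, GSK-126, the combination and the interaction in HepG2. It gave 26, 27, 31, 3 and 16 for decitabine, GSK-126, the combination, the combination against decitabine and the interaction in SNU398, and 10, 18, 9, 3 and 9 in SNU475. More members tested make part of these gains, and the cause of the others was not tested. Apart from voom with at least 10 reads, the shares of all genes called under these settings are not given. The fit with no filter covered 43609 genes, so the shares given above do not apply to it. These counts describe the members only.

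With 1 library left out, limma counts ran from 8 to 14, 2 to 5, 18 to 21, 11 to 14 and 7 to 10 in HepG2 for decitabine, GSK-126, the combination, the combination against decitabine and the interaction. They ran from 6 to 9, 11 to 13, 10 to 16, 0 to 1 and 9 to 10 in SNU398, and from 1 to 3, 5 to 6, 2 to 3, 0 to 1 and 1 to 4 in SNU475. voom counts ran from 25 to 33, 10 to 14, 34 to 44, 10 to 19 and 1 to 5 in HepG2, from 16 to 26, 19 to 27, 24 to 31, 0 to 3 and 11 to 13 in SNU398, and from 6 to 10, 9 to 16, 5 to 10, 0 to 3 and 2 to 9 in SNU475. A lone sample was assumed to vary like the other groups. The shares of all genes called with 1 library left out are not given, so these ranges describe the members only.

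Under quantile normalization the decitabine change in HepG2 turned to -0.057 for PCDHB3, -0.096 for PCDHB6 and -0.016 for PCDHB14, and the combination change to -0.014 for PCDHA10 and -0.062 for PCDHA11. That scaling moved the median of all genes by -0.092 for decitabine and -0.094 for the combination there. The HepG2 interaction of PCDHGA10 was -0.121 with voom on 22 members and -0.119 on 51. Of 3120 recomputed values of named members 2905 kept their direction and side of the threshold, 115 lost the call, 93 gained it and 7 reversed.

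The letters A and B only name libraries: same-letter deviations correlated between -0.118 and 0.244. With the replicate block, the limma counts of decitabine, GSK-126 and the combination were 13, 4 and 20 in HepG2, 10, 13 and 16 in SNU398 and 3, 6 and 2 in SNU475, all within 1.5 times. Depth limits PCDHA in HepG2 and PCDHA and PCDHB in SNU475 cells, where most members had fewer than 20 reads per library.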
